A study of Sus scrofa with 6 samples.

Results

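ANPEP, the gene of aminopeptidase N, was followed here through counts listed over the gene in small RNA libraries from the duodenum of piglets. Its members were the listed stretches of genome, called windows here, whose header named chromosome 7 with a start at or above 60770000 and an end at or below 60795000. This rule used position alone and no count. It found 117 distinct windows among 37784 in all libraries together. The ANPEP windows all had the same length, and 1 window elsewhere in the lists had another.

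The study compared small RNA between Sutai piglets sensitive or resistant to Escherichia coli with F18 fimbriae, which was read from the genotype at M307 of FUT1, a fucosyltransferase gene. Piglets 524 and 2129 were AA, the resistant genotype, and piglets 512, 2134 and 2383 were GG, the sensitive one. All were 28 days old, of the same breed and housed under the same conditions, and 524 with 512 and 2129 with 2134 were full sibs. Piglet 512 was sequenced in 2 runs, which were counted as 1 animal (n = 2 AA and 3 GG), and the AA sib of 2383, whose sequencing failed, was not analysed here.

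Aminopeptidase N is a zinc peptidase of the M1 family that is anchored in the brush border of enterocytes by a hydrophobic stretch near its N terminus, with a short tail inside the cell and the enzyme outside. It takes single amino acids off the N terminus of peptides and so completes the digestion of protein at the surface of the villus. The zinc is held by the HEXXH motif and a glutamate further on, and the GXMEN motif binds the N terminus of the substrate. In pigs the protein is also the receptor of transmissible gastroenteritis virus.

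The deposited windows carried their own sequence, and that sequence gave the gene's structure. Read on the minus strand, the windows formed 14 exon-like blocks from chr7:60775553-60790598, and the blocks held a chain of 20 coding exons with 19 introns of 95 to 4211 bases. The coding sequence had 2892 bases with its stop codon, of which 99.9% lay in windows and 2 bases were missing, and encoded 963 residues. The exons were placed by hand at splice signals that kept the reading frame open, without an annotation of that build. A single HEXXH motif was found, at residues 383 to 387, and a single GXMEN motif, at residues 347 to 351, both in exon 5. The glutamate after HEXXH, residue 406, followed after 18 residues, in exon 6, and the most hydrophobic stretch of 19 residues spanned residues 13 to 31. These features mark a membrane-anchored enzyme of the M1 family; the name ANPEP itself came from the rule and was not checked against a reference protein. The sequences below show these parts and the end of the protein on the coding strand, 5′ to 3′, with coordinates of the files' build; exon 5 is given in whole codons. Capitals mark the start codon and the hydrophobic stretch in the first, the GXMEN and HEXXH codons in exon 5, the codon of the glutamate in exon 6 and the stop codon in the last.
Start of the coding sequence in exon 1, chr7:60790417-60790536: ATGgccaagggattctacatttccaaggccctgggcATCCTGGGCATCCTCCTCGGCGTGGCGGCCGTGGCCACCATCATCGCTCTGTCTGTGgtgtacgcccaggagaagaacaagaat
Whole codons of exon 5, chr7:60788219-60788371: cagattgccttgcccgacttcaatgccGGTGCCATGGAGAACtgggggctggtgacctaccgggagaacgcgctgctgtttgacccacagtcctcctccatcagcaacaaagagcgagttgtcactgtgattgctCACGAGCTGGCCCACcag
Exon 6, chr7:60787876-60787989: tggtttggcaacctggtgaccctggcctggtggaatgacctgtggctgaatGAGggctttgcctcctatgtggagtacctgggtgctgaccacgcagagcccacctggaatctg
End of the coding sequence, exon 20, chr7:60776106-60776255: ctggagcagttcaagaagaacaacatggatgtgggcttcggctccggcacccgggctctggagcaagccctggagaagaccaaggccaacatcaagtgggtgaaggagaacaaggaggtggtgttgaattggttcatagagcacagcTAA

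No window elsewhere in the lists shared an exact stretch of 25 bases with the ANPEP windows (0 of 37667). Shorter or inexact matches and unlisted sequence were not searched, so whether counts were shared with another place was not tested. The nearest other listed windows lay 179945 bases below and 284459 bases above the gene. The windows were rich in G and C, with a median GC content of 59.7% against 46.8% in the other windows.

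The libraries held 42354 to 192861 counts in 3998 to 19473 windows, and no window with fewer than 5 counts was listed in any of them. The median count was 6 in each library, so most windows lay close to this lower limit. Intervals below cover counting error only and take the counts as independent. They are too narrow if a read was counted in several overlapping windows, which is not known.

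ANPEP windows were centred on exons or close beside them. The exons were placed by hand within the blocks that these same windows form, so this closeness is in part set by that choice. Every centre past the stop codon was put in the stretch after it, whose end was not mapped. The centre of the window fell in a coding exon for 87 of the 117 windows and after the stop codon for 20. The other 10 centres fell between exons, none more than 4 bases from one, and 0 fell before the start codon. Between exons 14 and 15, where the longest intron of 4211 bases lies, no window lay wholly in the intron in any library.

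**Figure D1:**
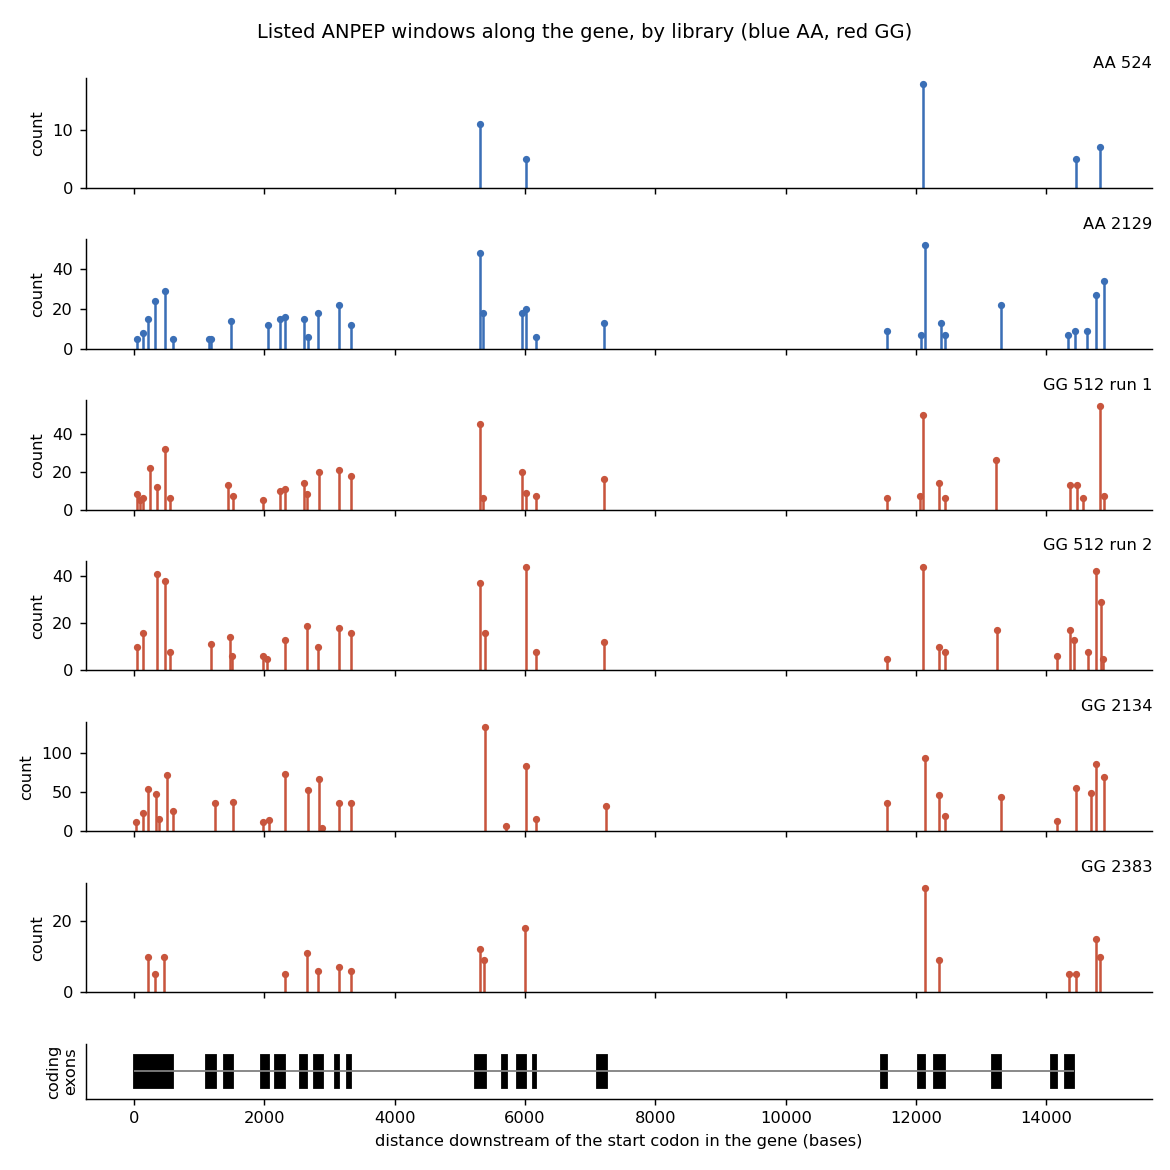
Count of each listed ANPEP window (vertical axis, own scale per library) against the distance of its centre downstream of the start codon (horizontal axis, bases), for the 6 libraries, with the 20 coding exons as black boxes. The stems stand over exons or, at the right end, after the last of them, and AA piglet 524 has 5 stems where AA piglet 2129 has 34.

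The number of listed windows differed widely between piglets. AA piglet 524 had 5 ANPEP windows with 46 counts, AA piglet 2129 had 34 with 545, and the runs of GG piglet 512 had 34 with 524 and 32 with 552. GG piglet 2134 had 32 windows with 1412 counts and GG piglet 2383 had 17 with 172. Most positions were particular to a library: 87 windows were listed in 1 library, 30 in several, and none in more than 4.

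As a share of each library's listed counts, ANPEP made up 0.0817% in AA piglet 524 (95% Wilson interval 0.0612% to 0.109%) and 0.429% (0.394% to 0.466%) in AA piglet 2129. The runs of GG piglet 512 gave 0.544% and 0.613%, GG piglet 2134 gave 0.732% (0.695% to 0.771%), and GG piglet 2383 gave 0.406% (0.350% to 0.471%). The interval of piglet 524 lay below all others, and the share in AA piglet 2129 was above that in GG piglet 2383 with overlapping intervals.

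Depth was compared with the number of windows, because a shallow library lists fewer of them. When the counts of the 4 deeper libraries were multiplied down to the total of piglet 524 and values under 5 were dropped, 20 to 26 ANPEP windows with 203 to 384 counts were left, against the 5 windows and 46 counts listed in it. Brought down to the total of GG piglet 2383 in the same way, the same libraries kept 13 to 23 windows with 116 to 284 counts, against the 17 and 172 listed. Piglet 2383 was the shallowest library and lay within that range, and piglet 524 lay below its own. Only totals were used for this, and not the scaling for composition used below for the genotypes. The counts are of RNA fragments of unstated strand in small RNA libraries, so they do not measure the level of ANPEP messenger RNA directly. In tissue, fewer enterocytes and less ANPEP RNA per enterocyte cannot be told apart, and a difference in the breakdown of RNA was not tested.

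**Figure D2:**
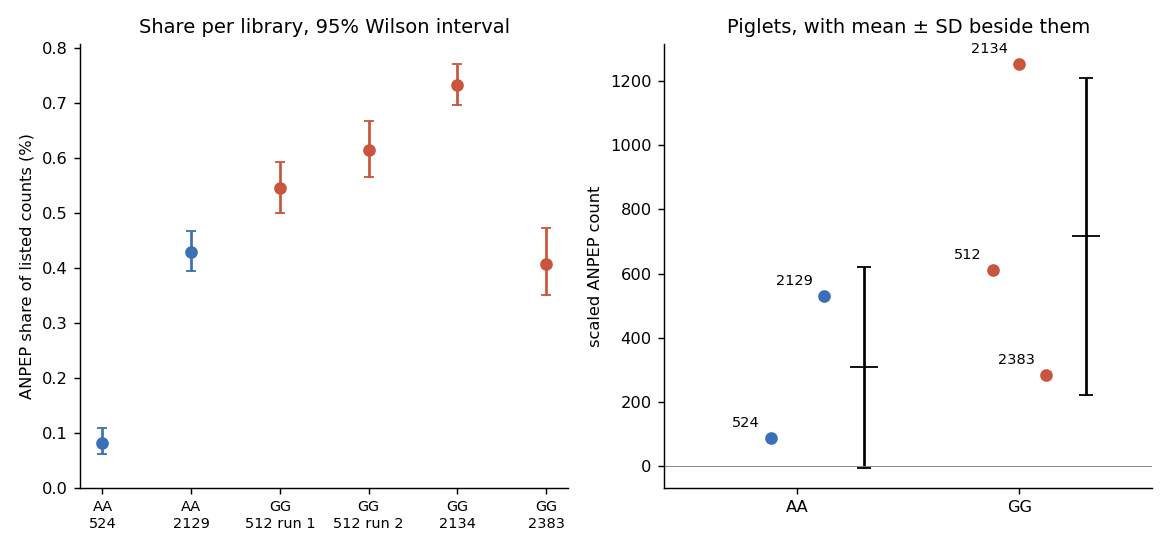
Left, ANPEP share of listed counts (%) in each of the 6 libraries with its 95% Wilson interval. Right, scaled ANPEP count of each piglet (points) with the mean and SD of its genotype beside it, where AA piglet 2129 stands above GG piglet 2383 and the genotypes overlap.

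Along the transcript, counts were spread from the first exon to the stretch after the stop codon in all libraries but that of piglet 524. A window counted for the exon, or for the stretch after the stop codon, that its centre fell in or lay nearest to, and an exon is called listed where a window counted for it. Exon 1 encodes the tail inside the cell, the membrane anchor and the first stretch outside the cell, up to residue 200. It took 15.8% of the ANPEP counts in AA piglet 2129, 17.4% and 20.5% in the runs of 512, 17.8% in 2134 and 14.5% in 2383, and no window over it was listed in 524. Exons 5 and 6, with the catalytic motifs, took 9.54%, 8.21%, 5.80%, 8.92% and 9.30% in the same libraries, again with nothing listed in 524. These 2 exons were therefore represented in every piglet but 524.

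Exons 2 to 4, between exon 1 and the exons with the catalytic motifs, took 6.61% in 2129, 4.77% and 7.61% in the runs of 512 and 7.15% in 2134, and were not listed in 524 or 2383. Exons 7 to 13 took the largest share of the coding parts in 5 of the 6 libraries, from 27.0% to 34.8% over all 6. In piglet 524 the largest was exons 14 to 18 at 39.1%, which took 17.4% to 23.9% in the others. Exons 19 and 20 encode the end of the protein and took 0.992% to 4.17% where they were listed. The stretch after the stop codon took 26.1% in 524, 14.5% in 2129, 15.5% and 17.6% in the runs of 512, 18.4% in 2134 and 17.4% in 2383. Neither the 5′ nor the 3′ end therefore held most of the counts in any library.

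By block, the highest mean count was in block 14, at chr7:60775553-60776475, which holds exons 19 and 20 and 553 bases after the stop codon. It had 12 counts in AA piglet 524, 86 in AA piglet 2129, 94 and 120 in the runs of GG piglet 512, 274 in GG piglet 2134 and 35 in GG piglet 2383. Its share of the ANPEP counts had a median of 19.9% over the libraries and ran from 15.8% in 2129 to 26.1% (15.6% to 40.3%) in 524. Block 1, at chr7:60789839-60790598 with exon 1, followed with 86, 91, 113, 252 and 25 counts in the same order of libraries, 524 left out because it listed none. Blocks 14 and 1 were also the longest, with 923 and 760 bases and 24 and 23 windows, and these counts were not divided by length.

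Blocks 6, 8, 11 and 14 were the ones listed in every piglet. Block 6, with exon 10 at chr7:60785136-60785311, had 11 counts in 524, 66 in 2129, 51 and 53 in the runs of 512, 133 in 2134 and 21 in 2383. Block 8, with exons 12 and 13, had 5, 44, 36, 52, 100 and 18 in the same order, and block 11, with exon 16, had 18, 59, 57, 44, 94 and 29. In each of these blocks the library of 2134 had the highest count and that of 524 the lowest. Block 7, with exon 11 at chr7:60784817-60784896, was the opposite case: its single window had 7 counts in 2134 and was listed in no other library.

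Per 100 coding bases, exon 16 had the highest count of the 20 exons in each of the 6 libraries. It had 16.2 counts per 100 bases in 524, 53.2 in 2129, 51.4 and 39.6 in the runs of 512, 84.7 in 2134 and 26.1 in 2383. Exon 10 had 6.25, 37.5, 29.0, 30.1, 75.6 and 11.9 and exon 12 had 3.73, 28.4, 21.6, 32.8, 62.7 and 13.4 in the same order. Exons 10, 12 and 16 were the coding exons listed in every library, and they carried the 3 windows of piglet 524 that were centred on coding sequence, with 11, 5 and 18 counts. The other 2 windows of 524 were centred after the stop codon: that with 7 counts lay wholly after it, and that with 5 also reached over 78 coding bases of exon 20.

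Exons 10 and 16 are printed, in whole codons. Windows were centred on them in every library, as on exon 12, which is not printed. The choice of exons 10 and 16 was made after their values were seen. The codons printed encode residues 748 to 783 for exon 16 and 519 to 576 for exon 10, both downstream of the zinc site, and no letter is in capitals.
Whole codons of exon 16, chr7:60778395-60778502: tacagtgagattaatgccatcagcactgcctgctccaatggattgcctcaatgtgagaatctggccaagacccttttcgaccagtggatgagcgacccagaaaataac
Whole codons of exon 10, chr7:60785138-60785311: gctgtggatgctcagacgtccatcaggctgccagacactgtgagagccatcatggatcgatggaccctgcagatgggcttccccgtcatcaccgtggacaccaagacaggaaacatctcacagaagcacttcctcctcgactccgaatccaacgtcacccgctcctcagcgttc

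At the other end of the order, exon 11 had 8.75 counts per 100 bases in 2134 and was not listed elsewhere, and exon 19 had 7.32 in run 2 of 512 and 17.1 in 2134 and was not listed in the other 4 libraries. Exon 20 had 4.67 in 2129, 8.67 and 11.3 in the runs of 512 and 3.33 in 2383, and no window was centred on it in 524 or 2134. In both, windows centred after the stop codon reached into exon 20, so its coding sequence was covered there too, and the value of an exon beside a longer exon or beside that stretch can be too low.

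**Figure D3:**
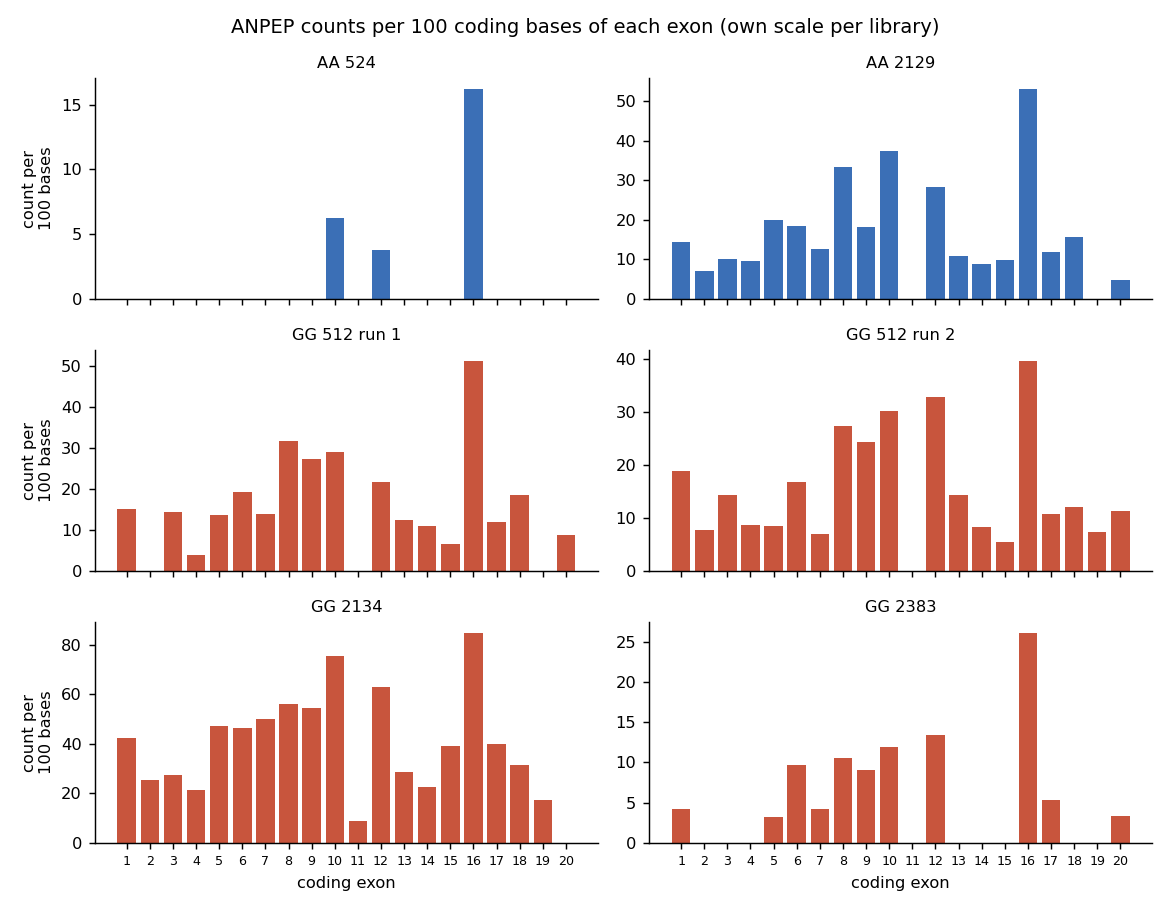
Counts per 100 coding bases (vertical axis, own scale per library) of the 20 coding exons in order (horizontal axis), for the 6 libraries. Exon 16 is the tallest bar in each library, and exon 11 has a bar in GG piglet 2134 only.

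The profile over blocks was compared between libraries by the share of counts that would have to move to another block to make them equal. AA piglet 2129 differed from run 1 of GG piglet 512 by 7.60 percentage points, from run 2 by 13.2 and from its own GG sib 2134 by 10.7. The runs of 512 differed from each other by 11.3. Of the 5 distances between the libraries of 2129, 512 and 2134, which ran from 7.60 to 13.2, 4 were smaller than that between the runs. Distances were 17.9 to 21.2 from 2383 to the libraries of 2129, 512 and 2134, and 40.1 to 57.4 from 524 to all others, with 9 and 4 blocks listed in those shallow libraries.

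The repeat runs of piglet 512 gave the technical spread of these values. Each listed the same 13 blocks, and both left out block 7. Relative to the run totals, the ANPEP count of run 2 was higher than that of run 1 by 0.17 on the log2 scale (95% interval for counting error -0.000528 to 0.34). Over the 13 blocks, a chi-square test found no difference in the distribution of counts past the threshold (chi-square 17.3 on 12 degrees of freedom, p = 0.140), which compares these libraries only.

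By block, the log2 ratio of run 2 to run 1 ran from -0.52 in block 13, which had 26 and 17 counts, to 0.73 in block 2, which had 20 and 31. Blocks 1, 2, 6, 8 and 14 were higher in run 2 and the other 8 were lower. The median size of the ratio was 0.32 over the ANPEP blocks and 0.23 over 1629 other regions with at least 20 counts in the runs together. That minimum was not applied to the ANPEP blocks, of which block 10 had 6 and 5 counts, and count levels were not matched. The blocks of most counts, 14 and 1, were both higher in run 2, with 94 and 120 counts and 91 and 113.

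**Figure D4:**
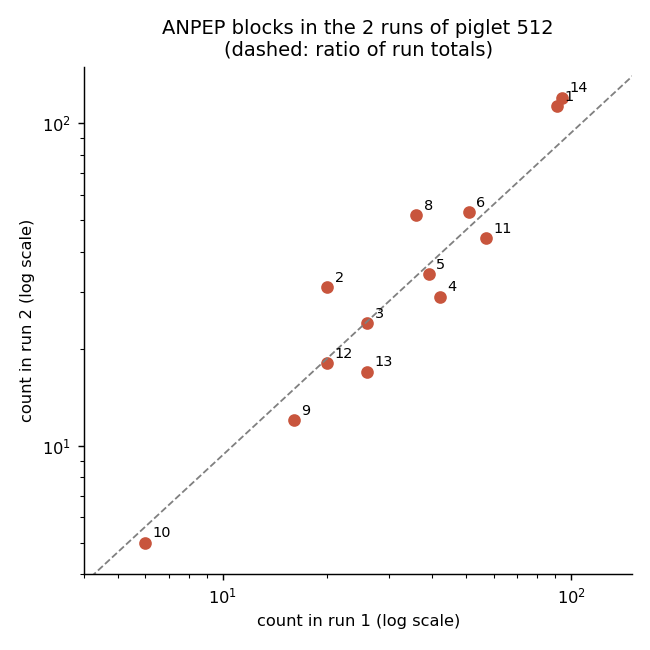
Count of each ANPEP block in run 2 (vertical, log scale) against run 1 (horizontal, log scale) of GG piglet 512; the dashed line is the ratio of the run totals and numbers are blocks from 5′ to 3′. Points lie on both sides of the line, with blocks 2 and 8 farthest above it and blocks 4 and 13 farthest below it.

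The exact position of a window was less stable than its block. The runs of 512 shared 10 ANPEP windows with the same start, 29.4% of the 34 in run 1 and 31.3% of the 32 in run 2. Over all windows the runs shared 2911, or 37.2% and 40.5%. Allowing 10 bases, 21 windows of each run had a partner in the other, 61.8% and 65.6%. Between piglets, 2129 and run 1 of 512 shared 6 starts and had 18 partners within 10 bases, and 2129 had 3 and 17 with its sib 2134. Of the 5 windows of piglet 524, 2 started at the same base as one of run 1 and 4 lay within 10 bases of one.

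Windows of the same library also overlapped one another. Of the ANPEP windows, 30 of 34 in 2129, 30 of 34 and 25 of 32 in the runs of 512, 21 of 32 in 2134 and 13 of 17 in 2383 overlapped another, and none did in 524. Starts were as close as 31 bases. Whether a read can count in several windows is not known, so sums over windows may count reads more than once.

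Between the genotypes, ANPEP was higher on average in GG than in AA piglets, but not beyond the spread between animals. Scaled for depth and composition, the ANPEP count was 86.8 in AA piglet 524 and 530 in AA piglet 2129. It was 611 in GG piglet 512, 1253 in GG piglet 2134 and 284 in GG piglet 2383, so AA piglet 2129 stood above GG piglet 2383 and the groups overlapped. By share of listed counts, 2129 and 2383 were close, at 0.429% and 0.406%. The composition factor was lowest in the piglet of most counts, 2134, at 0.594, and highest in that of fewest, 2383, at 1.54. The AA mean was 308 ± 313 (SD, n = 2), the GG mean was 716 ± 493 (SD, n = 3), and the two-sided exact permutation test gave p = 0.4, where 0.1 is the smallest that 10 splits allow. In these values each unlisted block counted as 2 before scaling, which concerned 10 blocks in 524, 5 in 2383 and 1 each in 2129 and 512.

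On the log2 scale the GG minus AA difference of ANPEP was 1.48 (SE 0.888, limma adjusted p = 0.533 over 2759 features). No feature passed an adjusted p of 0.05 in limma (0 of 2759, 0%), while 245 had an unadjusted p under 0.05, 186 of them higher in GG. The median difference of all features was 0.20, and 7.79% of features had a difference at least as large as that of ANPEP. ANPEP was here the sum of its blocks and every other feature a single merged region, so this share does not compare like with like. When no filter on low counts was applied, the same difference of 1.48 had a limma adjusted p of 0.00171 over 24645 features, of which 0.284% were called higher in GG.

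Without AA piglet 524 the ANPEP difference was 0.094 (SE 0.830, limma adjusted p = 0.969), and without AA piglet 2129 it was 2.80 (limma adjusted p = 0.261). The value was thus set by which AA piglet was kept, and without GG piglet 2134 it was 0.94.

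The sib pairs gave the comparison between full sibs. In the first, GG piglet 512 had a scaled count higher than that of its AA sib 524 by 2.80 on the log2 scale, and in the second GG piglet 2134 was higher than its AA sib 2129 by 1.24. With the pair as a block, a fit from which 2383 drops out and which has 1 residual degree of freedom, the difference was 2.09 (SE 0.446, limma adjusted p = 0.0483). Of 2719 features, 2.43% were called higher in GG in that fit, whose p-values rest mainly on variance borrowed from the other features. GG was higher in both pairs, and the share of all features with that pattern was not counted. The median difference of all tested regions in the pair fit was 0.33. In both pairs the GG sib also had the larger total count, 186240 against 56334 and 192861 against 127075.

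Block by block, 13 of the 14 ANPEP blocks reached 10 counts in at least 2 piglets and were tested among 2771 regions, and block 7 did not. The GG minus AA log2 difference was above 0 in each of the 13, where 58.6% of all regions were higher, and its median was 1.20 against 0.21 over all regions. None was called by limma (0 of 13, with 0% of all regions called). Their lowest adjusted p was 0.535, and 0 blocks had an unadjusted p under 0.05. With no filter on low counts limma called blocks 1, 4 and 14, against 0.28% of regions higher in GG, and with scaling by total counts alone it called block 1, against 1.15%. The fit with no filter borrowed variance from regions that were mostly unlisted, and so filled, in at least 1 piglet. The blocks share their animals and their gene and are not independent of each other. In 0 blocks did every GG piglet stand above every AA piglet, a pattern seen in 21.5% of all regions.

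Among the blocks listed in every piglet, block 14 had scaled counts of 15.8 and 83.4 in AA piglets 524 and 2129 and of 121, 243 and 54.6 in GG piglets 512, 2134 and 2383, a log2 difference of 1.65 (SE 0.838). Scaled counts of block 6, with exon 10, were 14.5 and 64.0 in AA piglets and 58.9, 118 and 32.7 in GG piglets, a difference of 0.97 (SE 0.744). In both, the value of AA piglet 2129 lay inside the range of the GG piglets.

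Scaled counts of block 8, with exons 12 and 13, were 6.58 and 42.6 in AA piglets and 49.9, 88.8 and 28.1 in GG piglets, a difference of 1.49 (SE 0.810). Those of block 11, with exon 16, were 23.7 and 57.2 in AA piglets and 57.2, 83.4 and 45.2 in GG piglets, the smallest difference of the 13 at 0.69 (SE 0.457). The largest difference was that of block 1, with the membrane anchor, at 2.54 (SE 1.34), where piglet 524 had no listed window. The other 8 tested blocks lay between 0.74 and 2.08.

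Blocked by sib pair, the fit gave another count: 5 of the 13 ANPEP blocks were called higher in GG by limma, where 2.53% of 2731 regions were. They were block 1 (exon 1) at 3.29 (adjusted p = 0.0478), block 2 (exons 2 and 3) at 2.33 (0.0417), block 4 (exons 6 and 7, with the glutamate of the zinc site) at 2.60 (0.0400), block 12 (exon 17) at 2.18 (0.0407) and block 14 (exons 19 and 20) at 2.27 (0.0400). Blocks 1, 2, 4 and 12 were not listed in piglet 524, so their size depends on the 2 counts given there. Without 524, in a fit with no block for the pair, 6 of the 13 blocks were higher and the median difference was -0.017.

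**Figure D5:**
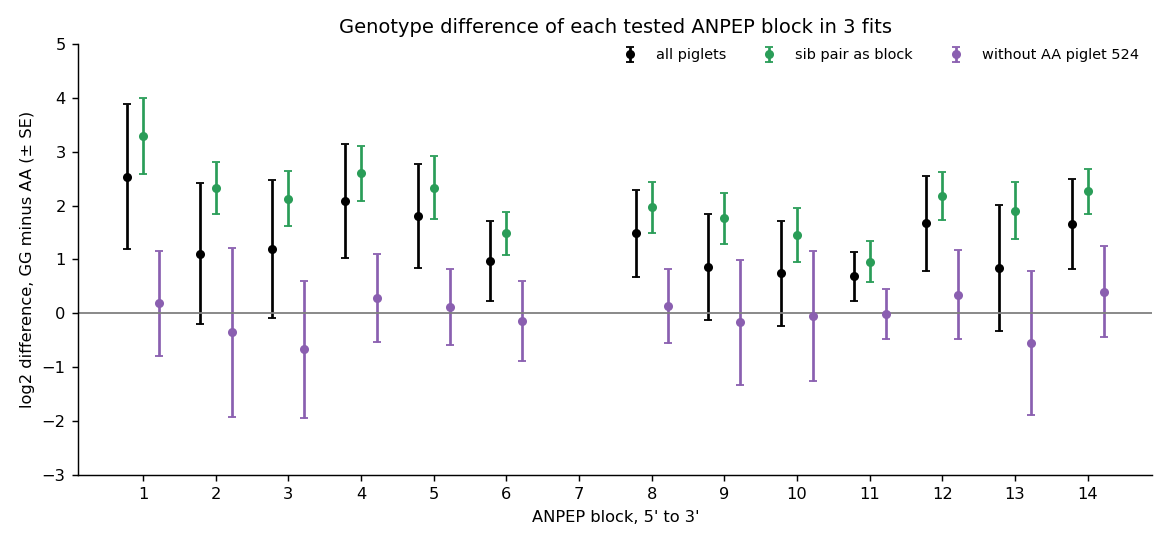
GG minus AA log2 difference (vertical axis, with SE) of the 13 tested ANPEP blocks in order from 5′ to 3′ (horizontal axis), for all piglets, for the fit blocked by sib pair, and without AA piglet 524. Points are above 0 in the first and the second fit and on both sides of 0 in the last; block 7 was not tested.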

How the data were processed

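The values are whole-number counts per window of 201 bases (1 window, not of ANPEP, had another length), which the authors deposited as lists; per the file headers, each count has a position and a sequence. No list held a count under 5. The aligner, filters, genome build, strand and read positions were not given in the sources used here. Total counts were 56334 (524), 127075 (2129), 96244 and 89996 (runs of 512), 192861 (2134) and 42354 (2383). The members, lists and tests were chosen with earlier results of these data known.

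Windows that overlapped by at least 1 base in any library were merged into 24658 regions, and the 14 regions of ANPEP are its blocks. The runs of 512 were summed. Counts were scaled by TMM (30% of ratios and 5% of abundances trimmed, over the 1584 regions listed in every piglet), with size factors of 0.760, 1.03, 1.76, 1.13 and 0.641 for 524, 2129, 512, 2134 and 2383. A region or block not listed in a piglet was given 2 counts, and 1 was added before log2, which shrinks differences of low features. Scaled counts of single blocks are given without the 2 counts. Features with at least 10 counts in at least 2 piglets were tested with limma 3.58.1 (R 4.3.3) with a mean-variance trend, once with ANPEP as 1 feature and once by block, and adjusted by Benjamini-Hochberg at 0.05. The limma p-values rest on the spread between piglets together with variance borrowed from the other features tested, so they also move with the filter. The fit with the pair as a block leaves 1 residual degree of freedom, so its p-values rest mainly on the borrowed variance. The pairs come from the labels, which name full sibs.

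Blocks listed in all piglets and the block of highest mean count were named in full. Sequences were taken from the windows and reverse complemented. Python 3.11.15, NumPy 2.4.6, SciPy 1.17.1, Biopython 1.88 and matplotlib 3.10.9 were also used. Only the fit by region, with the filter and without a block for the pair, was tested on simulated data. The fits with ANPEP as 1 feature, with the pair as a block and with no filter were not. The alternatives were another scaling, other values for unlisted features, another pseudocount, no filter, the sib pair as a block, single runs, highest windows, and each piglet left out. The windows do not name genes and no genome of their build was used, so other brush-border genes, markers of cell types and the mRNAs most like ANPEP were not analysed here.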

Additional observations from a re-analysis of the deposited data

How the results depend on the processing

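ANPEP was higher in GG in each of 15 alternatives. Leaving out each piglet in turn gave log2 differences of 0.094 to 2.80 (limma adjusted p 0.261 to 0.969) and 0 blocks called each time. With the replicate block (the sib pair), the difference was 2.09 (limma adjusted p = 0.0483) and 5 blocks were called. Without a filter on low counts it was 1.48 (limma adjusted p = 0.00171 over 24645 features, 0.284% called higher) and 3 blocks, 1, 4 and 14, were called (0.28% of regions). With total counts alone it was 1.33 (limma adjusted p = 0.399) and 1 block, block 1, was called (1.15% of regions). The difference of 1.48 was the same with and without the filter, and its SE was 0.888 and 0.321, since limma borrows variance from the features tested; for the other settings the cause was not tested. Total counts alone and 7 further settings gave 1.28 to 1.71 (limma adjusted p 0.399 to 0.640). Without AA piglet 524 the median difference of the ANPEP blocks was -0.017, with 6 of 13 higher, and that of all regions was -0.12. Over the piglets left out in turn, these medians ran from -0.017 to 2.77 and from -0.12 to 0.41, the latter being -0.085 without GG piglet 2134. Total counts alone gave an all-region median of 0.079. The share of block 14 went from 19.9% to 13.1% with the highest window of each block, by construction, since its several windows then count once. The difference between the runs was 0.039 with highest windows (chi-square p = 0.172) and 0.17 with scaling by shared windows. The edgeR test planned as an alternative was not run, because the deposited files are record lists of windows with at least 5 counts and not tables of counts per feature. The comparison rests on 2 AA piglets, and 524 was also the second shallowest library.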
